A study of Rattus norvegicus with 6 samples.

Results

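The splicing factor genes described here are those whose symbol follows the SR pattern Srsf with a number, begins with Hnrnp or U2af, or names an SF3A or SF3B subunit, together with 20 named SR-related proteins, SR kinases and muscle- or neuron-linked regulators. Of 31011 gene symbols in the files, 62 met this rule, and the listed symbol Qki was not found. The libraries came from 3 samples of rat myocardial cells given a control siRNA and 3 given an siRNA against eIF3m, a subunit of the translation initiation factor eIF3. The cells are labelled NRVM, their origin is given as embryonic rat heart muscle, and all were cultured in DMEM with fetal bovine serum. No strain or time after transfection is labelled. Nothing says that replicates came from separate cultures, and the p-values given here then reflect sample-to-sample spread that may be technical. Dexamethasone, isobutylmethylxanthine and insulin appear in the extraction text, and whether these cells were given them is not said. The design sets eIF3m knockdown against a control siRNA.

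Splicing removes introns from pre-mRNA, and the choice of splice sites is set by proteins that bind the transcript. SR proteins carry arginine-serine repeats and mostly promote the use of nearby exons. The hnRNP proteins often repress exons, and the U2 snRNP, with its SF3A and SF3B subunits, pairs with the branch point after U2AF has bound the 3′ splice site. Many genes of these families also tune their own mRNA through alternative exons that send it to decay. In heart and skeletal muscle, MBNL, CELF, RBFOX, PTBP, QK and RBM20 proteins shape the exons of contractile and calcium-handling genes.

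Total counts were 7437285 to 8603602 in controls and 10061575, 2156186 and 7901395 in eIF3m replicates 1, 2 and 3. Levels are given as CPM, counts scaled to library size and adjusted for composition, and fold changes are eIF3m over control. Eif3m itself stood at 138, 136 and 141 CPM in controls and at 92.0, 84.1 and 87.6 CPM after its siRNA, a change of -35.9% (adjusted p = 1.41e-07). The defining markers of the labelled cell type were largely absent: of 12 cardiomyocyte markers, 9 had a control mean under 5 CPM and Myl3 was at 0 in every library. Cardiomyocyte markers summed to 412 to 420 CPM in controls and to 168 to 189 CPM after knockdown, and most of this sum was Tnnt2 (means of 366 and 152 CPM). Pln fell as well (25.1 to 3.35 CPM), while Nkx2-5 was at 20.4 and 21.4 CPM (adjusted p = 0.866). Skeletal myoblast markers summed to 78.6 to 83.3 CPM and 40.7 to 46.5 CPM, with Pax7 at 0 in every library, and fibroblast markers to 15801 to 16300.1 CPM and 17010.0 to 17768 CPM. Col1a1 made up most of the fibroblast sum (12050.1 and 13266 CPM), and the list was mixed: 5 of its 8 tested genes rose, 2 fell, namely Thy1 (482 to 329 CPM) and Ddr2 (616 to 461 CPM), and Tcf21 and Pdgfra were at or near 0 in controls. Blood and leukocyte markers summed to 6256 CPM in eIF3m replicate 1, against 234 and 54.8 CPM in replicates 2 and 3 and 34.3 to 81.4 CPM in controls. Endothelial markers summed to 186 CPM there and to at most 48.8 CPM in the other 5 libraries. A control mean under 5 CPM was also found for 4 of 10 fibroblast and 4 of 8 myoblast markers. The same held for 6 of 8 endothelial and 6 of 9 blood and leukocyte markers. In bulk samples, fewer cells of a type and less RNA per cell cannot be told apart.

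Transcripts of splicing factors changed often, by small amounts and in both directions. Of the 62 genes, 59 had enough counts to be tested, and 25 rose and 11 fell (edgeR quasi-likelihood test, Benjamini-Hochberg adjusted p under 0.05 over all genes). The changed share was 61.0%, against 38.7% of the 12724 genes tested, and it lay on the side of higher levels: 42.4% rose, against 17.4% of all genes, and 18.6% fell, against 21.2%. Their median size of change was 0.17 on the log2 scale, below the 0.24 of all genes, while their median total count over the 6 libraries was 7654, against 1188. The part of this higher count in the number of calls was not tested. A change of at least 1.5-fold passed the test in 2 genes, Clk4 and Hnrnpc, and Hnrnpc did not pass without eIF3m replicate 1. Whether or not they passed, 4 of the 59 genes and 2107 of all 12724 changed that much. How many of all genes also passed was not counted.

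The libraries of the 2 groups did not overlap for 25 genes that were higher and 12 that were lower after the eIF3m siRNA, together 37 of 59, where 48.6% of all genes had separated groups. With upper-quartile scaling 30 rose and 6 fell (3015 and 2130 of all genes), and with no scaling factors 39 rose and 3 fell (4163 and 1680). Without scaling the median of all genes moved from 0.01 to 0.16, so the small falls described here hold relative to that shift. Without eIF3m replicate 1, the library with blood transcripts, 25 rose and 11 fell as well, and 22 and 11 of the calls were the same genes. Without control replicate 2, 15 splicing factor genes and 1770 of all genes rose.

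**Figure D1:**
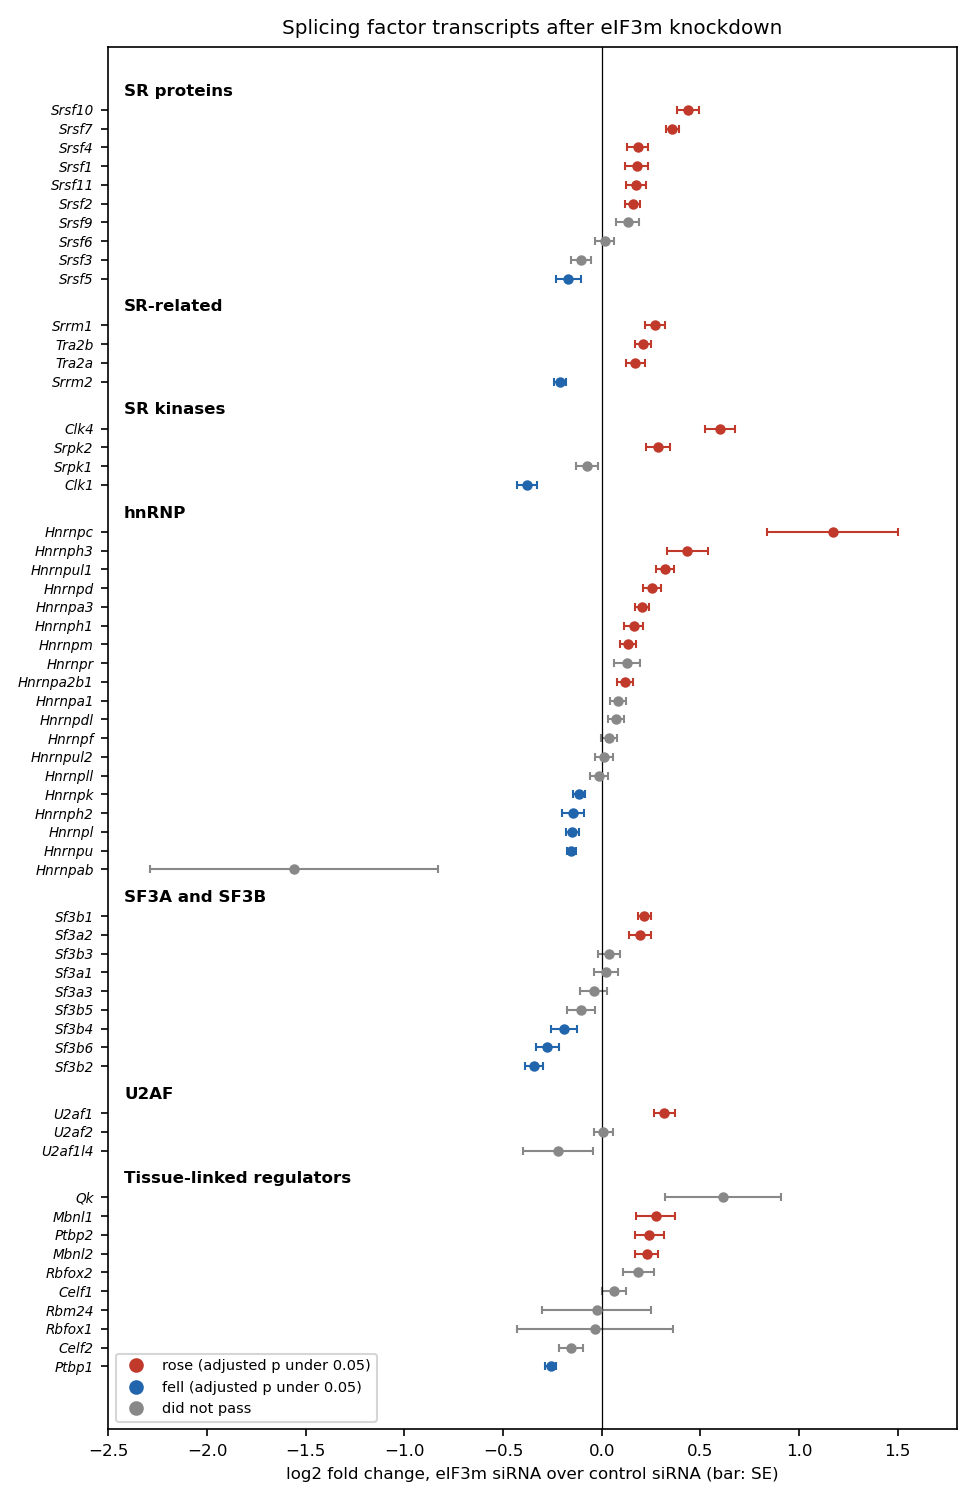
Log2 fold change of each tested splicing factor gene, eIF3m siRNA over control siRNA, with the standard error of the fit as a bar and genes grouped by role. Most points lie within 0.5 of 0, and Clk4 (0.60), Hnrnpc (1.17), Hnrnpab (-1.56) and Qk (0.61) stand outside.

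Among the SR proteins proper 6 of 10 tested genes rose and 1 fell, where 17.4% of all genes rose and 21.2% fell. Srsf7, an SR protein that also links splicing to mRNA export, was at 565, 565 and 562 CPM in controls and at 705, 708 and 754 CPM after the eIF3m siRNA. All 3 knockdown libraries lay above all controls, and the rise was 28.2% (0.36 ± 0.03 SE on the log2 scale, adjusted p = 7.62e-07). Srsf10, an SR protein that becomes a repressor of splicing when it loses its phosphates, stood at 150.1, 151.5 and 146 CPM in controls and at 189, 201 and 216 CPM after knockdown. This rise of 35.5% (0.44 ± 0.06 SE, adjusted p = 1.56e-05) was the largest among the SR proteins tested.

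The other risen SR genes changed by 11.5% to 13.5%. Srsf2, also called SC35 and a marker of nuclear speckles, went from 378, 376 and 377 CPM to 417, 421 and 421 CPM (0.16 ± 0.04 SE, adjusted p = 0.00388). Its groups were separated by far more than the spread of either. Srsf11 went from 266, 260.1 and 260.2 CPM to 279, 307 and 303 CPM (0.17 ± 0.05 SE, adjusted p = 0.0111). Srsf4 went from 84.1, 79.0 and 85.8 CPM to 96.6, 92.1 and 92.5 CPM (0.18 ± 0.05 SE, adjusted p = 0.0147). Srsf1, the prototype SR protein, rose by 0.18 ± 0.06 SE (adjusted p = 0.0262), and this call was lost in 6 of 17 alternative analyses, among them those without control replicate 1, 2 or 3 and without eIF3m replicate 2 or 3. Srsf11 was not called without control replicate 2 or 3. Srsf4 was not called with DESeq2, with thinned libraries, or without control replicate 2 or eIF3m replicate 1.

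Srsf5 was the SR gene that fell. It stood at 305, 299.8 and 298 CPM in controls and at 258, 304 and 247 CPM after knockdown, so eIF3m replicate 2 lay within the control range. Its change of -0.17 ± 0.06 SE (adjusted p = 0.0469) did not pass in 9 alternatives, among them those without control replicate 1, 2 or 3 or without eIF3m replicate 3. Srsf3, which controls its own mRNA through a decay-inducing exon, was at 174, 172 and 172 CPM in controls and at 157, 154 and 169 CPM after knockdown (-0.11 ± 0.05 SE, adjusted p = 0.107, and 0.04 with no scaling factors). Srsf9 (0.13 ± 0.06 SE, adjusted p = 0.0872) and Srsf6 (0.01 ± 0.05 SE, adjusted p = 0.834) had overlapping groups. Srsf8 and Srsf12 had a count of 0 in all 6 libraries; a count of 0 allows up to 0.287 to 1.33 CPM depending on the library, for counting error only.

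All 4 SR-related genes passed the test, against 38.7% of all genes, and the 2 large scaffold proteins moved apart. Srrm1, a coactivator that bridges SR proteins and snRNPs, was at 169, 180.2 and 181 CPM in controls and at 206, 213 and 221 CPM after knockdown (0.27 ± 0.05 SE, adjusted p = 6.07e-04). Srrm2, a core scaffold of nuclear speckles, went from 722, 723 and 748 CPM to 624, 630.5 and 637 CPM (-0.21 ± 0.03 SE, adjusted p = 4.71e-05). Neither gene's groups overlapped. Tra2b, an activator that binds GAA-rich exons, rose from 370.5, 373 and 371 CPM to 418, 444 and 428 CPM (0.21 ± 0.04 SE, adjusted p = 6.04e-04). Its paralogue Tra2a rose from 246, 238 and 241 CPM to 265, 264 and 286 CPM (0.17 ± 0.05 SE, adjusted p = 0.0121), a call lost without control replicate 2 or 3. The fall of Srrm2 did not pass with no scaling factors (-0.07).

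The kinases that phosphorylate SR proteins held the clearest opposite pair. Clk1 and Clk4 encode nuclear kinases of the same family. Clk4 stood at 31.1, 29.8 and 32.4 CPM in controls and at 46.4, 47.4 and 47.7 CPM after knockdown. Each knockdown library lay well above each control, a rise of 51.4% (0.60 ± 0.08 SE, adjusted p = 1.45e-05). Clk1 went the other way, from 207.5, 197 and 204 CPM to 153, 151 and 163 CPM, a fall of 23.0% (-0.38 ± 0.05 SE, adjusted p = 2.57e-05). Both calls passed in all 17 alternatives. Srpk2, a kinase that loads SR proteins for nuclear import, rose from 88.5, 104 and 98.8 CPM to 115, 121 and 119.9 CPM (0.28 ± 0.06 SE, adjusted p = 0.00183). Srpk1 was at 115, 117 and 111 CPM in controls and at 104, 108 and 114 CPM after knockdown, with overlapping groups (-0.07 ± 0.05 SE, adjusted p = 0.303, and 0.07 with no scaling factors).

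Of the tissue-linked regulators 3 rose and 1 fell of 10 tested, where 17.4% of all genes rose and 21.2% fell. The share that passed in either direction was close to the 38.7% of all genes. Ptbp1 and Ptbp2 moved in opposite directions. Ptbp1, the polypyrimidine tract-binding protein of most non-neuronal cells, represses many muscle and neuronal exons and is known to cause skipping of a Ptbp2 exon, which sends that mRNA to decay. Ptbp1 was at 925, 925 and 962 CPM in controls and at 788, 775 and 786 CPM after knockdown, a fall of 16.4% (-0.26 ± 0.03 SE, adjusted p = 2.38e-06). Ptbp2 was at 59.1, 55.5 and 60.7 CPM in controls and at 62.9, 78.8 and 71.2 CPM after knockdown (0.24 ± 0.07 SE, adjusted p = 0.0179). The groups of both genes were separated, but eIF3m replicate 1 came close to the controls for Ptbp2. The fall of Ptbp1 passed in all 17 alternatives, while the rise of Ptbp2 was lost with thinned libraries and without control replicate 2 or eIF3m replicate 2 or 3.

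The 100 bases before the RefSeq start sites of these 2 pairs are shown because the genes of each pair moved in opposite directions. Capitals mark letters of the CCAAT box (CCAAT), the GC box (GGGCGG), the YY1 motif (AAGATGG) or any of 5 other motifs named below, on either strand. Sequences are from RefSeq, assembly GRCr8, written 5′ to 3′ on the gene's strand.
Clk1, chr9:67453181-67453280, minus strand: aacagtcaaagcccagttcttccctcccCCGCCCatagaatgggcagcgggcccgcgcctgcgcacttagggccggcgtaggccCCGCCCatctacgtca
Clk4, chr10:36024358-36024457, plus strand, first of 2 listed start sites: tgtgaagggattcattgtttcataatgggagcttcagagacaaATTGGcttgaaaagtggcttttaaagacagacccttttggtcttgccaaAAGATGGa
Ptbp1, chr7:10502958-10503057, minus strand: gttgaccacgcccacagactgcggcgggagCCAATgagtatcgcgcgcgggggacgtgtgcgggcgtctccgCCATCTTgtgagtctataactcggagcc
Ptbp2, chr2:210558278-210558377, minus strand: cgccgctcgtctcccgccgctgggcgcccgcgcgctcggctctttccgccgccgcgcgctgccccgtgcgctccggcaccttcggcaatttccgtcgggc

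The Clk1 stretch held 2 GC boxes, and those of Clk4 and Ptbp1 held 1 CCAAT box and 1 YY1 motif each. None of the 8 motifs was found in these letters of Ptbp2. The whole window of 300 bases around the start was 40.3% G or C for Clk4, 51.0% for Clk1, 62.0% for Ptbp1 and 74.3% for Ptbp2. A window was found for 54 of the 62 genes, 53 by symbol and Qk by its synonym Qki, and their median G and C content was 62.2%, against 52.3% over 27457 promoters. The GC box occurred in 68.5% of these windows (34.9% of all), the CCAAT box in 50% (37.7%), the ETS motif CCGGAAG in 18.5% (9.22%) and the E-box CACGTG in 11.1% (6.65%). The TATA box TATAAA occurred in 9.26% (14.3%), the YY1 motif in 9.26% (7.30%), the CRE TGACGTCA in 1.85% (1.91%) and the palindromic NRF1 motif in 1.85% (0.932%). Among genes that rose and fell, the GC box was found in 18 of 24 and 6 of 9 windows and the CCAAT box in 13 of 24 and 5 of 9. These matches describe letters and not sites in use.

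Mbnl1 and Mbnl2, whose proteins drive the switch from fetal to adult exons in heart and skeletal muscle, both rose, while Mbnl3 of the same family, counted below among other regulators, was at 43.8 and 43.3 CPM (-0.02 ± 0.09 SE, adjusted p = 0.901). Mbnl2 went from 130.2, 127 and 135 CPM to 144, 166 and 153 CPM (0.23 ± 0.06 SE, adjusted p = 0.00510), a call lost with thinned libraries. Mbnl1 was at 28.5, 35.2 and 37.7 CPM in controls and at 43.2, 39.4 and 39.3 CPM after knockdown (0.27 ± 0.10 SE, adjusted p = 0.0413). Its groups were just separated, and the call was lost in 8 alternatives, among them those without control replicate 1 or 2 and without eIF3m replicate 1, 2 or 3. The CELF proteins act against MBNL on many heart exons. Celf2 was at 73.6, 84.8 and 78.4 CPM in controls and at 69.8, 71.3 and 72.0 CPM after knockdown (-0.16 ± 0.06 SE, adjusted p = 0.0543), separated but short of the threshold. Celf1 was at 130.2, 139 and 129.75 CPM in controls and at 135, 128 and 151 CPM after knockdown, with overlapping groups (0.06 ± 0.06 SE, adjusted p = 0.463).

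Regulators most tied to differentiated heart muscle were low in all libraries. Rbm20, the splicing repressor of titin, had 3 to 9 counts per library and was not tested. Rbm24, a muscle splicing activator, was at 4.40, 3.58 and 4.68 CPM in controls and at 4.21, 2.21 and 4.93 CPM after knockdown (-0.03 ± 0.28 SE, adjusted p = 0.958). Rbfox1, the muscle and neuronal RBFOX gene, was at 1.28, 1.28 and 2.34 CPM and at 1.53, 1.33 and 1.804 CPM (-0.03 ± 0.39 SE, adjusted p = 0.963). The groups of both genes overlapped. The widely expressed Rbfox2 was at 90.8, 77.7 and 70.4 CPM in controls and at 91.3, 94.7 and 87.0 CPM after knockdown, with overlap through control replicate 1 (0.19 ± 0.08 SE, adjusted p = 0.0705). Leaving out 1 library moved Rbfox2 between 0.28 (adjusted p = 0.00512, without control replicate 1) and 0.10 (adjusted p = 0.337, without control replicate 3).

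**Figure D2:**
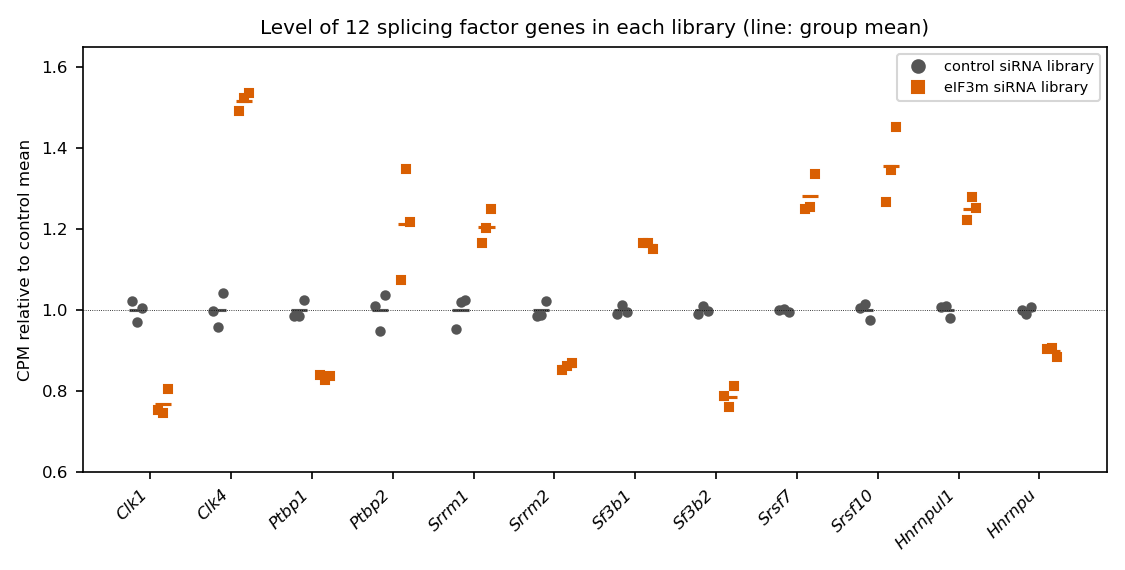
CPM of 12 splicing factor genes in each library, divided by the gene's control mean, with circles for control siRNA, squares for eIF3m siRNA and a line at each group mean. Squares lie below circles for Clk1, Ptbp1, Srrm2, Sf3b2 and Hnrnpu and above them for the other 7 genes.

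Ratios of related genes within a library do not depend on how libraries are scaled, and 9 pairs had enough counts. The Clk4 to Clk1 count ratio was 0.150, 0.151 and 0.159 in controls and 0.303, 0.313 and 0.292 after knockdown, 1.98 times higher. The ratio of Ptbp2 to Ptbp1 was 0.0640, 0.0600 and 0.0631 in controls and 0.0798, 0.102 and 0.0906 after knockdown, 1.45 times higher. Srrm2 to Srrm1 dropped from 4.28, 4.01 and 4.13 to 3.03, 2.97 and 2.88. In all 3 pairs every knockdown library lay beyond every control. Srpk2 to Srpk1 was 1.29 times higher, U2af2 to U2af1 0.801 times and Celf2 to Celf1 0.873 times the control ratio, also without overlap. Each of these 6 pairs reached the smallest p that 3 against 3 allows (exact two-sided permutation test, p = 0.1, adjusted p = 0.15 over 9 pairs), which cannot pass 0.05. The ratios of Mbnl2 to Mbnl1 (exact permutation p = 0.9), Tra2a to Tra2b (p = 0.5) and Rbfox1 to Rbfox2 (p = 0.8) overlapped between groups. Ratios of other gene pairs were not computed, so the share of separated pairs has no reference here. Of single genes, 48.6% of all tested had separated groups, and the pairs were chosen with earlier results of these data known.

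**Figure D3:**
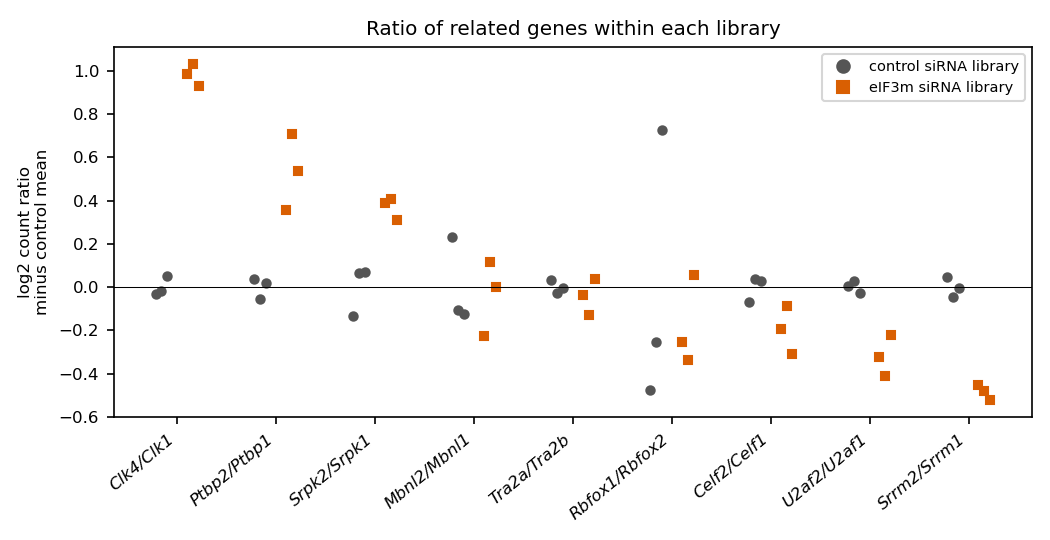
Log2 ratio of the counts of 2 related genes in each library, minus the pair's control mean, with circles for control siRNA and squares for eIF3m siRNA. The Clk4 to Clk1 squares lie near 1, and 6 of the 9 pairs show no overlap between circles and squares. Other gene pairs were not computed.

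Among hnRNP genes 8 rose and 4 fell of 19 tested (42.1% and 21.1%, against 17.4% and 21.2% of all genes). Hnrnpul1, which belongs to the hnRNP U-like proteins and acts in the DNA damage response, was at 169, 169 and 164 CPM in controls and at 205, 214 and 209.9 CPM after knockdown. The rise of 24.9% (0.32 ± 0.05 SE, adjusted p = 6.26e-05) was found in every knockdown library. Hnrnpu itself, a nuclear matrix and chromatin-bound RNA-binding protein, fell from 1125, 1115 and 1133 CPM to 1018, 1021 and 994 CPM (-0.15 ± 0.02 SE, adjusted p = 9.28e-05). Their relative Hnrnpul2 was at 270.2, 270.4 and 273 CPM in controls and at 267, 285 and 269 CPM after knockdown, with overlap.

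Of the A/B and D genes, those that passed the test rose. Hnrnpa3 went from 565, 604 and 584 CPM to 668, 685 and 665 CPM (0.20 ± 0.03 SE, adjusted p = 2.16e-04). Hnrnpd, also known as AUF1 and a binder of AU-rich elements that govern mRNA decay, went from 227, 214 and 216 CPM to 258, 266 and 261 CPM (0.25 ± 0.05 SE, adjusted p = 5.01e-04). Both had separated groups. Hnrnpa2b1 (0.12) and Hnrnpm (0.13) rose by less, and both calls were lost without control replicate 2 or 3. That of Hnrnpa2b1 was also lost without control replicate 1 and with no filter, and that of Hnrnpm with thinned libraries. Hnrnpa1, a classical antagonist of SR proteins, was at 715, 726 and 701 CPM in controls and at 711, 801 and 758 CPM after knockdown (0.08 ± 0.04 SE, adjusted p = 0.106). Hnrnpa1 and several relatives have many processed copies in mammalian genomes, and no source used here gives how reads shared with such copies were counted, which leaves their values uncertain.

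The H and F family split. Hnrnph3 (0.43 ± 0.10 SE) and Hnrnph1 (0.16 ± 0.05 SE) rose, Hnrnph2 fell by 0.15 on the log2 scale, and Hnrnpf did not pass. Hnrnph3 stood at 17.7 ± 0.720 CPM in controls and at 24.1 ± 0.735 CPM after knockdown (SD, n = 3 per group). The call of Hnrnph2 (adjusted p = 0.0450) was lost in 10 alternatives, among them the replicate block and those without control replicate 2 or 3 or eIF3m replicate 3. That of Hnrnph1 was lost with thinned libraries and without control replicate 3 or eIF3m replicate 3, and that of Hnrnph3 with thinned libraries.

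Hnrnpl and Hnrnpk fell. Hnrnpl, which binds CA repeats, went from 552, 541 and 535 CPM to 500.3, 483 and 485 CPM (-0.15 ± 0.04 SE, adjusted p = 0.00349). Hnrnpk, a binder of C-rich RNA, went from 773 ± 2.10 to 713 ± 15.7 CPM (SD, n = 3; adjusted p = 0.00527), and its change of -0.12 turned to 0.03 with no scaling factors. The groups of both genes were separated, and both calls were lost with upper-quartile scaling, with no scaling factors and with thinned libraries.

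A few hnRNP and QK values rested on single libraries. Hnrnpc, the binder of U-tracts, was at 16.7, 16.3 and 17.3 CPM in controls, while eIF3m replicates 1, 2 and 3 stood at 60.9, 31.0 and 15.9 CPM. It passed the test (1.17 ± 0.33 SE, adjusted p = 0.0117), yet replicate 3 lay below all controls. Without eIF3m replicate 1 it was at 0.30 ± 0.20 SE (adjusted p = 0.255), and it also failed with limma-voom, DESeq2 and robust dispersion and without control replicate 2 (1.14, adjusted p = 0.0530). It passed in the other 12 of 17 alternatives, and was at 1.61 without eIF3m replicate 3 (adjusted p = 1.90e-05). Beta globin, Hbb, ran in the same order in eIF3m replicates 1, 2 and 3, at 2142, 73.1 and 17.4 CPM, and the part of blood cells in the Hnrnpc value was not tested. Hnrnpab, a relative of Hnrnpd, was at 10.5, 60.9 and 4.81 CPM in controls and at 5.16, 25.2 and 6.49 CPM after knockdown. Replicate 2 of each group was thus the high one, and the change of -1.56 ± 0.73 SE (adjusted p = 0.105) was 0.37 without control replicate 2 (adjusted p = 0.657) and -2.07 without control replicate 3 (adjusted p = 0.0234). Qk, whose protein binds ACUAA elements and regulates muscle exons, was at 5.53, 4.61 and 4.93 CPM and at 4.97, 5.76 and 11.5 CPM, so eIF3m replicate 3 alone lay clearly above the rest (0.61 ± 0.29 SE, adjusted p = 0.115, and 0.05 without that library). Without eIF3m replicate 1 it was at 0.95 (adjusted p = 0.00602).

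**Figure D4:**
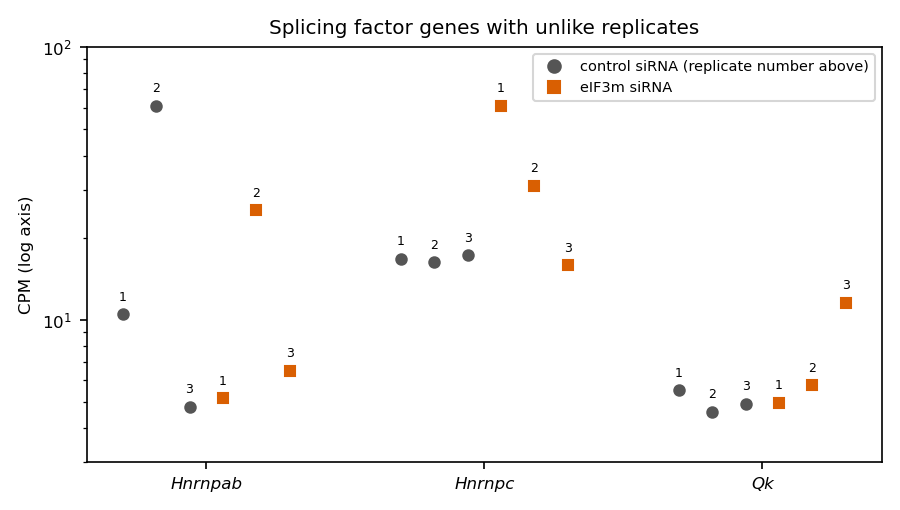
CPM of Hnrnpab, Hnrnpc and Qk in each library on a log axis, with the replicate number above each point. The highest libraries were control replicate 2 for Hnrnpab (60.9 CPM), eIF3m replicate 1 for Hnrnpc (60.9 CPM) and eIF3m replicate 3 for Qk (11.5 CPM). The second highest was eIF3m replicate 2 for Hnrnpab (25.2 CPM) and for Hnrnpc (31.0 CPM).

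For the other genes replicates were close. In 54 of the 59 tested genes the highest library of a group was at most 1.5 times the lowest, and the median coefficient of variation over genes was 3.47% in controls and 4.04% after knockdown. The 5 exceptions were Hnrnpab, Hnrnpc, Qk, Rbfox1 and Rbm24.

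Of 9 SF3A and SF3B subunits of the U2 snRNP, 2 rose and 3 fell (22.2% and 33.3%, against 17.4% and 21.2% of all genes). SF3B1 is the scaffold that clasps the branch point helix, and SF3B2 binds the pre-mRNA beside it. Sf3b1 rose from 579, 592 and 582 CPM to 682, 681 and 673 CPM (0.22 ± 0.03 SE, adjusted p = 4.30e-05). Sf3b2 fell from 278, 284 and 279.96 CPM to 221, 214 and 228 CPM, by 21.1% (-0.34 ± 0.05 SE, adjusted p = 2.85e-05). Neither gene's groups overlapped, and both calls passed in all 17 alternatives.

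Sf3b6, the small subunit that contacts the branch point adenosine, fell from 65.4, 67.2 and 68.5 CPM to 55.5, 56.7 and 54.7 CPM (-0.28 ± 0.06 SE, adjusted p = 0.00127). Sf3a2 rose from 102, 101 and 111 CPM to 124, 119.5 and 116 CPM (0.19 ± 0.06 SE, adjusted p = 0.0121). Sf3b4 fell from 169.9, 155 and 173 CPM to 154, 127 and 149 CPM (-0.19 ± 0.07 SE, adjusted p = 0.0315). All 3 had separated groups. The Sf3a2 call was lost with thinned libraries and without control replicate 1 or 2. That of Sf3b4 was lost with upper-quartile scaling, with no scaling factors, and without control replicate 1 or 3 or eIF3m replicate 2. The Sf3b6 call was lost with no scaling factors and with thinned libraries. Sf3a1, Sf3a3, Sf3b3 and Sf3b5 did not pass and had overlapping groups.

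Of the U2AF genes 1 rose and 0 fell of 3 tested (1 at an unadjusted p under 0.05). This was 33.3%, against 38.7% of all genes. U2af1, the small subunit that reads the AG of the 3′ splice site, rose from 90.5, 97.1 and 94.5 CPM to 117, 123 and 114 CPM (0.32 ± 0.05 SE, adjusted p = 2.18e-04). U2af2, the large subunit that binds the pyrimidine tract, was at 261, 284 and 266 CPM in controls and at 269.95, 265 and 279.9 CPM after knockdown (0.01 ± 0.05 SE, adjusted p = 0.922). The libraries of U2af1 were separated and those of U2af2 overlapped. U2af1l4, a paralogue of the small subunit, did not pass (adjusted p = 0.355).

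Of the 36 calls, 15 held in the same direction in all 17 alternatives. The 12 that rose were Srsf7, Srsf10, Srsf2, Srrm1, Tra2b, Clk4, Srpk2, Hnrnpul1, Hnrnpa3, Hnrnpd, Sf3b1 and U2af1, and the 3 that fell were Clk1, Sf3b2 and Ptbp1. How many calls of all genes held in every alternative was not counted. With no scaling factors the median of all genes moved from 0.01 to 0.16, which shrinks small falls. Srrm2 and Hnrnpu lost their calls in that alternative alone.

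Genes of the splicing machinery outside the rule were counted in 7 lists, and 42 rose and 14 fell of 134 tested. Together 41.8% passed, close to the 38.7% of all genes, though more of them rose (31.3%, against 17.4%) and fewer fell (10.4%, against 21.2%). In the list of U1 snRNP and Sm proteins 7 rose and 1 fell of 17 (47.1% passed). Snrpf (0.49 ± 0.07 SE), Luc7l3 (0.41 ± 0.07) and Snrpd2 (0.28 ± 0.07) had the lowest p. That list also holds the U2 snRNP proteins Snrpa1 and Snrpb2, and neither passed. In the tri-snRNP list 7 rose and 1 fell of 21 (38.1% passed), led by the helicase Snrnp200 (0.32 ± 0.05), Prpf4 (0.54 ± 0.11) and Lsm3 (0.52 ± 0.12). Snrpd2 did not pass without control replicate 3 or eIF3m replicate 1.

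Other proteins of the U2 stage counted 4 risen and 1 fallen of 13 (38.5% passed, against 38.7% of all genes). Rbm17 (0.29 ± 0.07 SE) and U2surp (0.24 ± 0.06) rose, and Puf60, a U2AF-like protein, fell by 0.23 on the log2 scale. The PRPF19 complex and catalytic-stage list counted 2 risen and 4 fallen of 23 (26.1% passed). Prpf38b rose (0.28 ± 0.06), and Bud31 (-0.36 ± 0.07) and Syf2 (-0.42 ± 0.10) fell. Of exon junction and export proteins 4 rose and 3 fell of 16 (43.8% passed). Nxf1, the export receptor of bulk mRNA, fell from 239.6 ± 7.98 to 179.7 ± 5.39 CPM (SD, n = 3; -0.42 ± 0.05 SE, adjusted p = 7.15e-06), while the junction factors Pnn (0.30 ± 0.05) and Casc3 (0.47 ± 0.09) rose.

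Of proteins that assemble snRNPs 4 rose and 0 fell of 12 (5 of 12 had an unadjusted p under 0.05). This was 33.3%, against 38.7% of all genes. Smn1, the core of the assembly complex, went from 33.3 ± 1.82 to 47.0 ± 2.49 CPM (SD, n = 3; 0.48 ± 0.08 SE, adjusted p = 1.74e-04), and Gemin6 (0.54 ± 0.11) and Clns1a (0.20 ± 0.07) also rose. Clns1a was lost in 9 alternatives, among them those without control replicate 1 or 2 and without eIF3m replicate 1, 2 or 3. Of other splicing regulators 14 rose and 4 fell of 32 (56.2% passed). Tia1, a stress granule protein that helps U1 at weak 5′ splice sites, went from 28.5 ± 0.287 to 48.0 ± 4.22 CPM (0.73 ± 0.09 SE). Cirbp, a cold-inducible RNA-binding protein, rose by 0.57 ± 0.06 and Elavl1, also called HuR, by 0.49 ± 0.05 on the log2 scale.

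**Figure D5:**
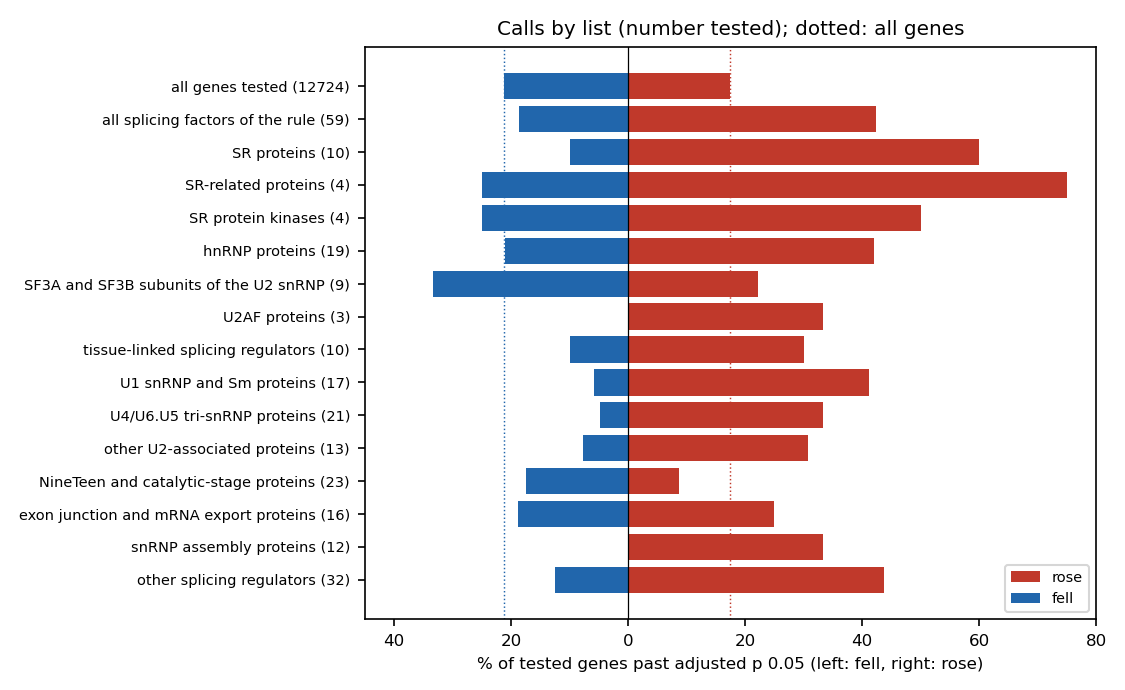
Percentage of tested genes past an adjusted p of 0.05 in each list, with those that rose to the right and those that fell to the left; the number tested stands in brackets and dotted lines mark all genes. The splicing factors reach 42.4% risen and 18.6% fallen, beside 17.4% and 21.2% of all genes.

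Counts were made per gene. They do not separate isoforms that make protein from those sent to decay, and the use of exons was not analysed here.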

How the data were processed

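The deposited files hold read counts per gene, whole numbers that the authors did not scale. Per the submitters' processing notes, Trimmomatic 0.40, HISAT2 2.2.1, featureCounts, DESeq2, limma and build rn6 were named, with no role or order; strand, annotation and multi-mapping settings: not given in the sources used here. Of 31038 symbols, 27 had turned into dates and were left out (0.203% to 0.216% of counts). Counts were tested with edgeR 4.0.16 in R 4.3.3: filterByExpr (minimum count 10, minimum total 15), TMM scaling, quasi-likelihood F-test without covariates, two-sided, Benjamini-Hochberg adjusted over 12724 genes. A run on simulated data planted changes of 1.5-fold and 2-fold only, so it cannot speak for the smaller changes given here. CPM divides counts by the TMM-scaled total of tested genes; 3 counts, taken as the floor, were worth 0.287 to 1.33 CPM. Log2 ratios added 0.5 to each count, linear ratios are of plain counts, and both needed a mean of 10 counts in both genes. Alternatives changed scaling, filter, depth or test (limma 3.58.1, DESeq2 1.42.0), or left out a library. Chi-square per degree of freedom between replicates was 1.82 to 9.13, so none agreed within sampling noise.

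The genes, lists and tests were chosen with earlier results of these data known. Per-library values are given for up to 5 called genes with the lowest p in each role group, for related pairs and for called changes of at least 2-fold, and up to 3 called genes per pathway list are named; genes without a call were named after their values were seen. RefSeq promoter windows hold 250 bases before and 50 after a start.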

Additional observations from a re-analysis of the deposited data

How the results depend on the processing

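Among 17 alternatives, counts of splicing factor calls moved by over 1.5 times with scaling, depth and 1 left-out library. With no scaling factors 39 rose and 3 fell (4163 and 1680 of all genes); with upper-quartile factors 6 fell; with libraries thinned to the smallest, 17 rose and 6 fell (1351 and 1782). Leaving out 1 library gave 15 to 25 risen and 9 to 11 fallen splicing factor genes (1692 to 2113 and 2336 to 2641 of all genes), fewest risen splicing factors without control replicate 2. The cause was not tested. Splicing factor genes were compared singly if called or in a ratio pair, as were up to 3 called genes per pathway list. Hnrnpab, Qk, Srsf3, Srsf9 and Hnrnpa1 were added. In this set 94 values missed the threshold, 26 passed it newly and 19 changed sign. Sign changes were, with no scaling factors, Hnrnpk (0.0304), Srpk1 (0.0717), Srsf3 (0.0395), Rbfox1 (0.11) and Rbm24 (0.12); with upper-quartile factors, Rbfox1 (0.0346) and Rbm24 (0.0415); with limma-voom, Rbfox1 (0.0258); with no filter, U2af2 (-0.0107). Leaving out 1 library gave ranges that crossed 0 for Rbfox1 (-0.191 to 0.320), Rbm24 (-0.207 to 0.109), U2af2 (-0.0238 to 0.0397), Celf1 (-0.00883 to 0.116) and Hnrnpab (-2.14 to 0.366, the latter without control replicate 2). Of these only Hnrnpk had passed the test. Some splicing factor genes outside that set, none of them called, also crossed 0 over the 17 alternatives. They were Srsf6 (-0.00901 to 0.161), Hnrnpll (-0.0489 to 0.131), Hnrnpul2 (-0.0269 to 0.157) and Sf3a1 (-0.0193 to 0.168). Sf3a3 (-0.145 to 0.105), Sf3b5 (-0.180 to 0.0410) and U2af1l4 (-0.302 to 0.310) did so too.

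Log2 differences of ratios with thinned libraries were -0.61 for Srrm2/Srrm1, 0.86 for Clk4/Clk1, -0.47 for U2af2/U2af1 and 0.0058 for Tra2a/Tra2b. Leaving out a library turned Mbnl2/Mbnl1 to 0.080 or 0.058 (range -0.11 to 0.080) and Rbfox1/Rbfox2 to 0.19 (-0.42 to 0.19). With a replicate block 25 splicing factor genes rose and 11 fell, and 2123 and 2632 of all genes; Hnrnpab passed there (-0.77, adjusted p = 0.0174). Deviations of same-numbered libraries correlated at 0.029, -0.0083 and 0.0094. With 3 libraries per group these values cannot show whether same-numbered samples shared a culture or batch. The smallest library, eIF3m replicate 2, limits low levels.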
